A study of Homo sapiens with 6 samples.

Results

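The nuclear envelope genes described here encode the nucleoporins, which build the nuclear pore complex, and the lamins with the proteins that anchor them at the inner nuclear membrane. They were chosen by name from the deposited gene table, as protein-coding genes whose symbol is NUP followed by a number (with L and a digit allowed after it) or is LMNA, LMNB1, LMNB2, LBR, EMD, TMPO, TPR, RANBP2, SEH1L, NDC1 or POM121. The rule on names holds no measured value, although it was written with earlier results of these data known, and it gave 31 genes of the 58735 in the table, of which 19951 are protein-coding. The 31 genes comprise 25 pore proteins and 6 proteins of the lamina and inner membrane.

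The transcriptome was sequenced in PC9-BrM3 cells, a subpopulation with a high propensity for brain colonization that was derived from the human lung adenocarcinoma line PC9 by repeated passage through immunodeficient mice. The groups compared were 3 libraries of cells carrying an shRNA against AKR1B10 (BrM3-shAKR1B10) and 3 libraries of cells carrying a negative control shRNA (BrM3-shNC, given the genotype WT in the labels). All cells were grown in routine culture without a drug, and both groups carried a lentiviral shRNA. A single derivative line and a single shRNA against AKR1B10 were sequenced, so that silencing of AKR1B10 and any other effect of that shRNA cannot be told apart. The comparison asks how the transcriptome of the brain-metastatic cells differs once AKR1B10, an aldo-keto reductase, is silenced.

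The pore complex spans the envelope as stacked outer, inner and transmembrane rings around a central channel, with filaments on the cytoplasmic side and a basket on the nuclear side. Its channel proteins carry phenylalanine-glycine repeats that transport receptors bind on their way through. The lamina is a meshwork of A-type lamins, whose amount differs between tissues, and B-type lamins, which nearly all cells make. In dividing cells the pores and lamina are taken apart at mitosis and rebuilt on the chromosomes of the daughter cells, and new pores are inserted during interphase.

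Reads on genes numbered from 16964504 to 18709028 per library. AKR1B10 was measured at 108, 107 and 110 FPKM (fragments mapped to a gene, scaled by its length and by the size of the library) in the BrM3-shAKR1B10 libraries and at 799, 775 and 772 FPKM in the BrM3-shNC libraries. This left 13.9% of the control level (log2 fold change -2.85, SE 0.0300, limma adjusted p = 1.6e-07), and the groups stood far apart. Of 12 lung epithelial markers, 7 were above a mean of 1 FPKM (KRT19, KRT8, KRT18, KRT7, EPCAM, CDH1 and MUC1), with a summed level of 3170 to 3260 FPKM in BrM3-shAKR1B10 and 2990 to 3350 in BrM3-shNC. Among single markers, MUC1 was called higher (log2 fold change 0.63) and the low-level COL1A1 of fibroblasts and CDH5 of endothelium were called at -0.67 and 0.65, all below 6 FPKM. The alveolar markers NKX2-1, NAPSA, SFTPA1, SFTPB and SFTPC were below that level. The summed markers of fibroblasts, immune, endothelial, and glial or neuronal cells each stayed below 3 FPKM, and COL1A2, LUM, DCN, LYZ and KDR were at 0 in every library.

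The groups were compared in limma, using log2(FPKM + 0.1) as the scale, over the 13150 genes with a mean of at least 1 FPKM, with Benjamini-Hochberg adjustment over all of them. Called genes have an adjusted p under 0.05 together with a log2 fold change beyond 0.5 in size. For low genes the added 0.1 makes fold changes too small on this scale. All 31 nuclear envelope genes passed the filter, and the least covered of them, NUP35, had at least 282 reads in each library. The labels do not say whether the replicates were separate cultures, so the p-values measure only the spread between these samples. In bulk RNA a smaller share of cells of a kind (here, cells in a cell cycle phase) and less RNA per cell cannot be told apart.

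Silencing of AKR1B10 was accompanied by lower transcript levels across most of the envelope genes. Of the 31 genes, 11 (35.5%) were called lower and 0 were called higher, beside 7.45% of all genes tested called lower and 5.83% called higher. The 11 genes were TMPO, NDC1, NUP35, LMNB1, LMNB2, NUP37, NUP107, LBR, NUP205, NUP88 and NUP43, at between 47.3% and 69.9% of the control level. With no limit on the fold change, 24 of the 31 genes (77.4%) had an adjusted p under 0.05 in the lower direction and 1, RANBP2, in the higher direction, beside 23.1% and 19.4% of all genes tested. The remaining 6 genes, NUP214, NUP133, NUP98, POM121, EMD and NUP160, did not pass the limma test at any fold. The 3 libraries of each group did not overlap for the same numbers of genes, 24 lower and 1 higher, beside 29.2% and 25.5% of all genes tested. The median log2 fold change of the 31 genes was -0.37, that of all genes tested was -0.011, and 28 of the 31 values were below 0.

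**Figure D1:**
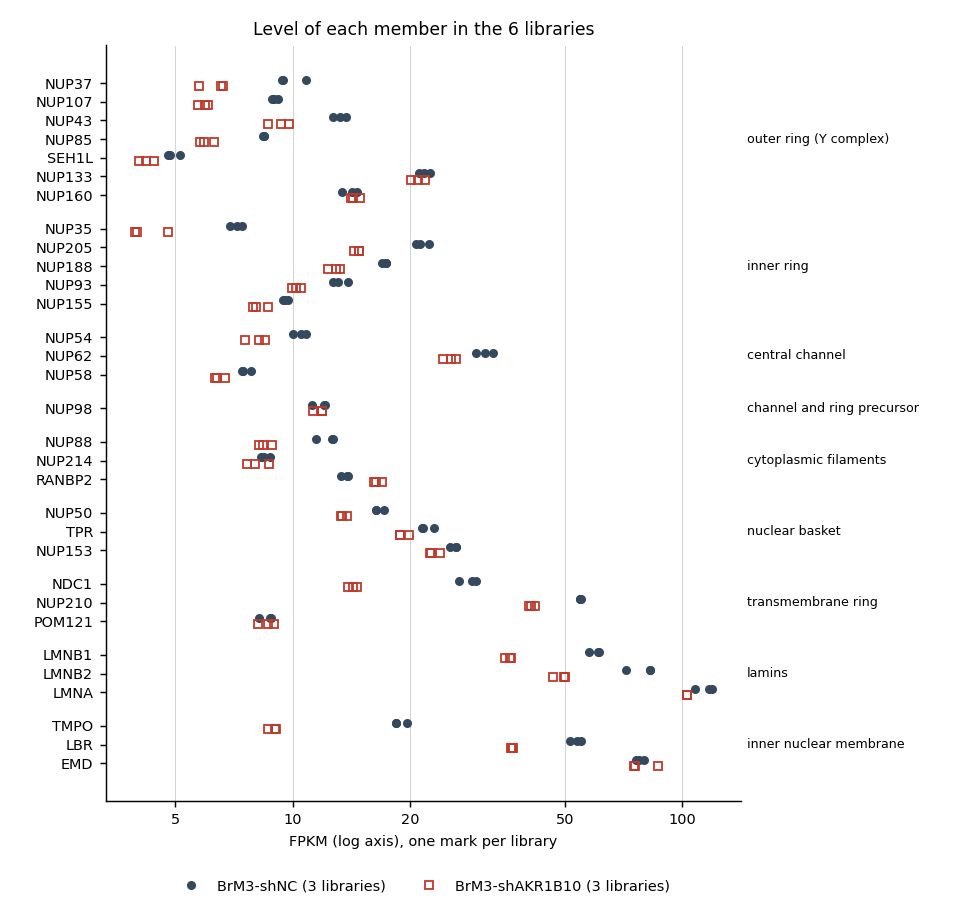
Level of each nuclear envelope gene in FPKM (log axis), grouped by place in the pore or lamina, with 1 mark for each of the 3 BrM3-shNC libraries (filled circles) and 3 BrM3-shAKR1B10 libraries (open squares). The squares lie to the left of the circles without overlap for 24 genes and to the right for RANBP2.

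The levels ranged widely. LMNA was the highest of the 31 genes, at a mean of 115 FPKM in BrM3-shNC, followed over all libraries by EMD and LMNB2, and the highest pore gene was NUP210 at 54.7 FPKM. The lowest were SEH1L at 4.92 FPKM and NUP35 at 7.16 FPKM in BrM3-shNC. FPKM is a level per length of gene, and these figures compare levels, not changes. The called genes were spread over the range of levels, from NUP35 near the bottom to LMNB2 near the top.

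**Figure D2:**
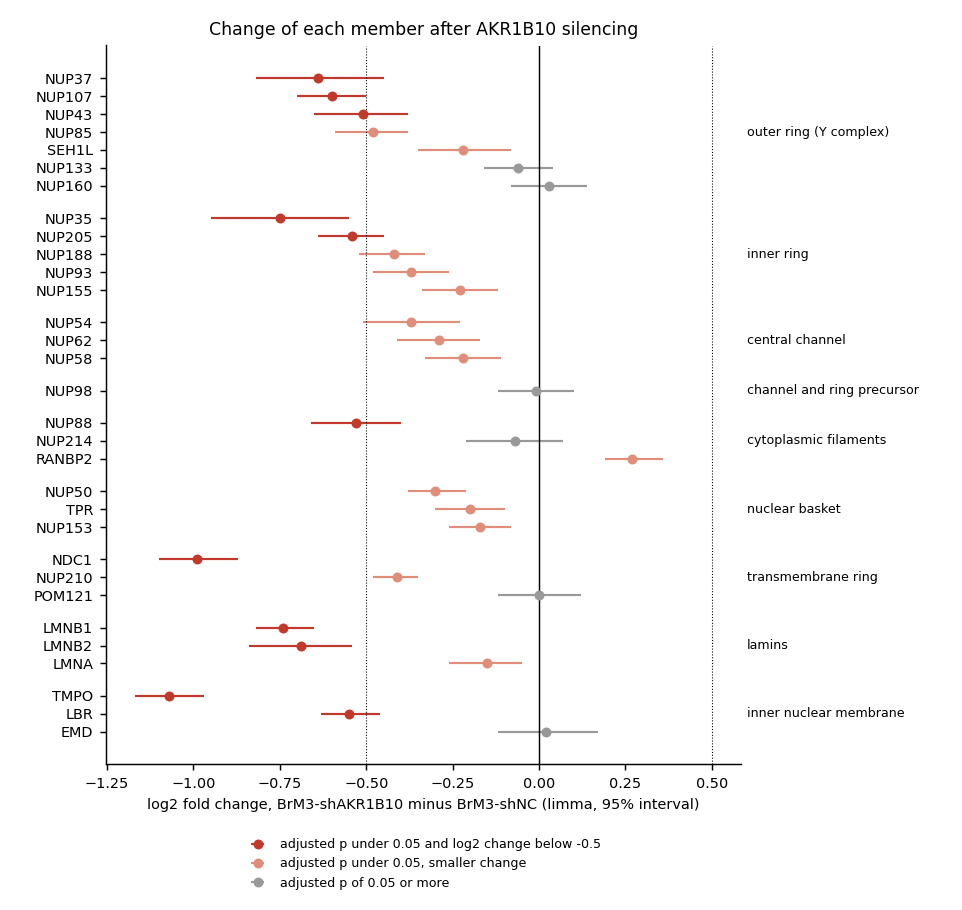
Log2 fold change of each gene (BrM3-shAKR1B10 minus BrM3-shNC, points) with the 95% interval from limma (bars), grouped as in the plot of levels, with dotted lines at -0.5 and 0.5. TMPO and NDC1 lie furthest to the left at -1.07 and -0.99, and RANBP2 at 0.27 is the one point right of 0 whose interval excludes 0.

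Among the lamins, the B-type transcripts fell and the A-type transcript changed much less. LMNB1 (ENSG00000113368, chr5:126776623-126837020, plus strand, GRCh38), which encodes lamin B1, was at 36.0, 35.1 and 36.3 FPKM in BrM3-shAKR1B10 and at 57.5, 61.1 and 60.7 FPKM in BrM3-shNC. Every silenced library lay more than 20 FPKM below every control library. The level was 59.9% of control (log2 fold change -0.74, SE 0.0354, limma adjusted p = 2.7e-05). LMNB2 (chr19:2427638-2456996, minus strand), which encodes lamin B2, was at 49.8, 46.5 and 50 FPKM against 71.7, 82.5 and 82.4 FPKM. The first control library was the lowest of its group for LMNB2 and still stood well above the silenced libraries. LMNB2 was at 61.8% of control (log2 fold change -0.69, SE 0.0636, limma adjusted p = 3.2e-04).

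LMNA (chr1:156082573-156140089, plus strand), whose transcripts give lamins A and C by alternative splicing, was at 103 FPKM in each of the 3 silenced libraries and at 108, 117 and 119 FPKM in the control libraries. The groups did not overlap, but the gap to the lowest control library was small. Its log2 fold change of -0.15 (SE 0.0432, limma adjusted p = 0.0287) was not called, since it was smaller than 0.5, and LMNA stood at 89.8% of control. Even at any fold, LMNA no longer passed with no filter on low values (limma adjusted p = 0.0694), in TPM (0.135), under quantile normalization (0.0614), or without any single library other than BrM3-shNC replicate 1 (0.0741 to 0.0876). The deposited values are per gene, so lamin A and lamin C could not be separated.

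The ratio of LMNB1 to LMNA within a library, a measure of B-type against A-type lamin transcripts that does not depend on the scaling of the library, was 0.348, 0.342 and 0.351 in BrM3-shAKR1B10 and 0.533, 0.520 and 0.509 in BrM3-shNC. The groups did not overlap, and the mean log2 ratio differed by -0.59 (exact permutation of the 6 libraries, two-sided p = 0.10, which is the lowest value possible with 3 libraries a group). The pairs of genes used for ratios, other than LMNB1 with LMNA, were chosen after their values were seen, so their ratios are descriptions with no test. The ratio of LMNB2 to LMNA differed by -0.54 on the log2 scale, from 0.686 ± 0.0190 to 0.473 ± 0.0173 (SD, n = 3). The B-type lamins kept closer to each other. Their ratio, LMNB1 to LMNB2, was 0.734 ± 0.0176 in BrM3-shAKR1B10 and 0.760 ± 0.0366 in BrM3-shNC, and its groups overlapped (SD, n = 3).

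**Figure D3:**
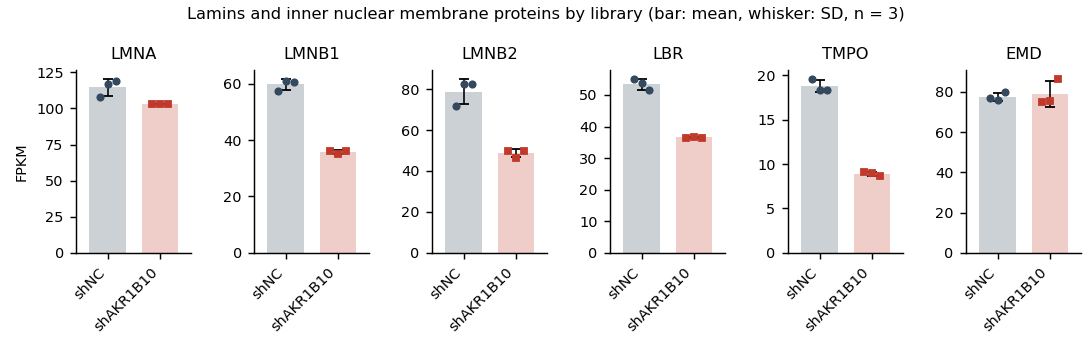
FPKM of the 3 lamins and 3 inner nuclear membrane proteins in each library (points), with the mean (bar, from 0) and SD (whisker, n = 3) of BrM3-shNC and BrM3-shAKR1B10. LMNB1, LMNB2, LBR and TMPO are well below control in all 3 silenced libraries, LMNA by a small step (103 against 108 to 119 FPKM), and EMD overlaps.

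The inner nuclear membrane proteins split in the same manner. TMPO (ENSG00000120802, chr12:98515512-98550379, plus strand) encodes the LAP2 proteins, which carry LEM and LEM-like domains and bind lamins and chromatin. It was at 9.06, 9.0 and 8.62 FPKM in BrM3-shAKR1B10 and at 19.6, 18.4 and 18.4 FPKM in BrM3-shNC. No other gene of the 31 had a lower log2 fold change (-1.07, SE 0.0423, limma adjusted p = 1.6e-05), and the level was 47.3% of control. Since the values are per gene, the transcripts of the different LAP2 proteins could not be separated. Of the exonic bases of TMPO, 8.30% are shared with genes on the opposite strand, TMPO-AS1 among them. Whether reads were counted by strand is not stated. TMPO-AS1 itself was at 0.584 ± 0.103 FPKM in BrM3-shAKR1B10 against 1.06 ± 0.199 FPKM in BrM3-shNC (SD, n = 3), low beside TMPO and below the filter.

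LBR (chr1:225401502-225428925, minus strand), the lamin B receptor, which tethers heterochromatin to the membrane and also acts as a sterol reductase, was at 36.5, 36.8 and 36.3 FPKM against 54.9, 53.7 and 51.5 FPKM. The spread within the silenced group was under 1 FPKM, far less than the gap between the groups. Its log2 fold change was -0.55 (SE 0.0337, limma adjusted p = 6.6e-05), close enough to the limit of 0.5 that quantile normalization ended the call at -0.48. EMD (chrX:154379197-154381523, plus strand), which encodes emerin, another LEM domain protein, was at 75.1, 75.5 and 86.5 FPKM against 77.2, 75.8 and 79.8 FPKM. The silenced libraries lay on either side of the control libraries. Its log2 fold change was 0.02 with a 95% interval from -0.12 to 0.17 (limma adjusted p = 0.780), an interval that does not reach the values of TMPO and LBR. Within libraries, the ratio of TMPO to EMD was 0.113 ± 0.0117 in BrM3-shAKR1B10 and 0.243 ± 0.0120 in BrM3-shNC, and that of LBR to EMD was 0.464 ± 0.0391 and 0.689 ± 0.0378 (SD, n = 3).

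The transmembrane ring anchors the pore in the envelope, and its 3 members behaved differently. NDC1 (ENSG00000058804, chr1:53765460-53838860, minus strand), a multi-pass protein needed for pore insertion, was at 14.6, 13.9 and 14.3 FPKM in BrM3-shAKR1B10 and at 29.6, 28.8 and 26.7 FPKM in BrM3-shNC. It stood at 50.3% of control, with wide separation of the groups (log2 fold change -0.99, SE 0.0473, limma adjusted p = 2.7e-05). NUP210, a single-pass glycoprotein of the pore membrane, was at 40.4, 40.8 and 41.9 FPKM against 54.8, 54.5 and 54.6 FPKM. Its replicates lay close together, so that a log2 fold change of -0.41 was clear of the spread (limma adjusted p = 9.7e-05) while falling short of the fold limit.

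POM121, the third transmembrane protein, was at 8.93, 8.13 and 8.66 FPKM against 8.21, 8.72 and 8.80 FPKM, with overlapping groups. Its log2 fold change was -0.00 with a 95% interval from -0.12 to 0.12 (limma adjusted p = 0.992). POM121 has a near-identical copy, POM121C, at 14.3 FPKM against 15.5 FPKM. It also shares 18.9% of its exonic bases with genes on the opposite strand, NSUN5P2 among them. The reads of POM121 are thus less certain than those of NDC1. The ratio of NDC1 to POM121 was 1.67 ± 0.0381 in BrM3-shAKR1B10 and 3.32 ± 0.287 in BrM3-shNC, and the ratio of NDC1 to NUP210 was 0.348 ± 0.0113 and 0.520 ± 0.0269 (SD, n = 3). Summed over the 3 genes, the transmembrane ring had the lowest share of the control level among the parts of the envelope, 69.7%.

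In the outer ring, or Y complex, a Y-shaped scaffold on both faces of the pore, 3 of the 7 genes were called lower, 5 passed the test in the lower direction at any fold, and 2 did not pass. The shares, 42.9% called lower and 71.4% lower at any fold, stand beside 7.45% and 23.1% of all genes tested, and those 2 background shares apply to each part of the pore described next. NUP107 (chr12:68686734-68745809, plus strand), a subunit of the stem of the Y, was at 5.73, 5.94 and 6.05 FPKM in BrM3-shAKR1B10 and at 8.95, 8.84 and 9.17 FPKM in BrM3-shNC. Both groups were tight and did not approach each other (log2 fold change -0.60, SE 0.0411, limma adjusted p = 9.8e-05). NUP37 (chr12:102073103-102120124, minus strand), a propeller protein that binds NUP160, was at 5.75, 6.54 and 6.64 FPKM against 10.8, 9.45 and 9.40 FPKM. One library in each group stood apart from its replicates for NUP37, away from the other group (log2 fold change -0.64, SE 0.0782, limma adjusted p = 0.00102).

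NUP43 (chr6:149724315-149749665, minus strand), another propeller protein, was at 9.76, 9.31 and 8.65 FPKM against 13.7, 12.7 and 13.2 FPKM, with a log2 fold change of -0.51 (limma adjusted p = 6.2e-04). It lay just inside the fold limit, and its call was lost at -0.47 without BrM3-shAKR1B10 replicate 3, at -0.49 without BrM3-shNC replicate 1, and under 3 other settings. NUP85, an arm of the Y, was at 5.79, 6.29 and 5.91 FPKM against 8.44, 8.41 and 8.42 FPKM, just outside the limit at -0.48 (limma adjusted p = 3.3e-04). The fold limit thus separated NUP43 and NUP85 although their values hardly differed. SEH1L, which binds NUP85, had a smaller difference, with 4.03 to 4.41 FPKM against 4.79 to 5.13 FPKM and a log2 fold change of -0.22 (limma adjusted p = 0.0203). SEH1L no longer passed in TPM (0.0534), or without BrM3-shAKR1B10 replicate 2 (0.0634), BrM3-shAKR1B10 replicate 3 (0.0568) or BrM3-shNC replicate 2 (0.0671), each a limma adjusted p.

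The large scaffold subunits NUP133 and NUP160 did not pass the test. NUP133, at the tip of the stem and bound to NUP107, was at 20.9, 21.8 and 20.1 FPKM against 21.7, 21.1 and 22.5 FPKM, with a 95% interval of its log2 fold change from -0.16 to 0.04. NUP160, at the hub, was at 14.9, 14.3 and 14.1 FPKM against 14.6, 14.2 and 13.4 FPKM, with an interval from -0.08 to 0.14. The groups overlapped for both genes, and neither interval reached the values of NUP107, NUP37 and NUP43. The ratio of NUP107 to its partner NUP133 was 0.274, 0.273 and 0.301 in BrM3-shAKR1B10 and 0.412, 0.418 and 0.408 in BrM3-shNC. The ratio of NUP37 to its partner NUP160 was 0.438 ± 0.0461 and 0.70 ± 0.0364, and that of NUP85 to NUP160 was 0.416 ± 0.0270 and 0.598 ± 0.0261 (SD, n = 3). AHCTF1 and SEC13, which also belong to the complex but are not covered by the rule on names, were looked up after the values of the others were known. AHCTF1 (ELYS, which seeds pores on chromatin after mitosis) was at 22.0 ± 0.375 FPKM against 20.8 ± 0.630 FPKM (SD, n = 3, limma adjusted p = 0.105), and SEC13, which also serves in vesicle coats, was at 25.4 ± 1.27 FPKM against 20.9 ± 0.601 FPKM with a log2 fold change of 0.28 (SD, n = 3, limma adjusted p = 0.00351).

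**Figure D4:**
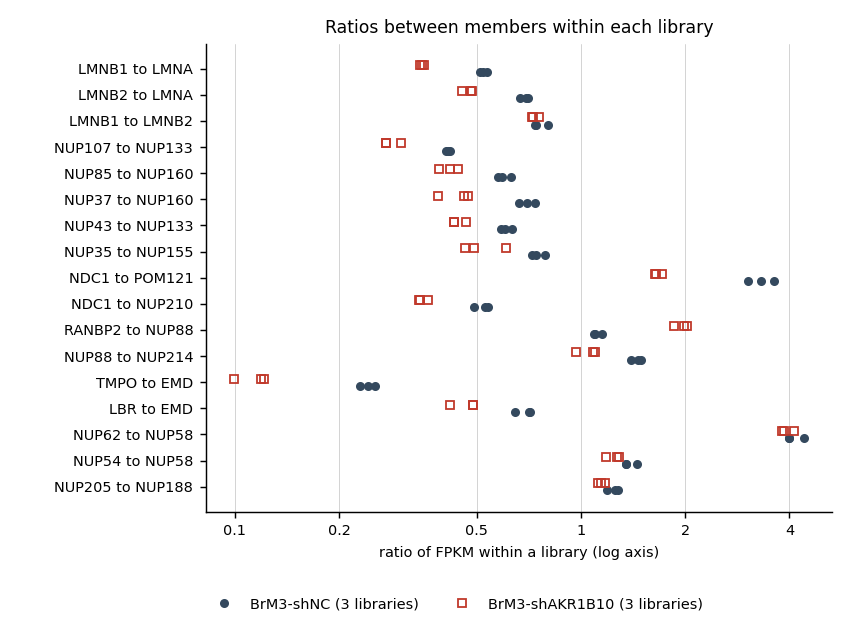
Ratio of the FPKM of named pairs of genes within each library (log axis), with circles for the 3 BrM3-shNC and squares for the 3 BrM3-shAKR1B10 libraries. The groups lie apart for all pairs shown except LMNB1 to LMNB2 and NUP62 to NUP58, and RANBP2 to NUP88 is the one pair with a higher ratio in the silenced libraries without overlap.

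All 5 genes of the inner ring, the scaffold that lines the pore and holds the channel in place, passed the test in the lower direction at any fold, and 2 were called. NUP35 (ENSG00000163002, chr2:183117513-183161680, plus strand), which binds the membrane and links NUP155 with NUP93, was at 3.99, 4.78 and 3.93 FPKM in BrM3-shAKR1B10 and at 7.39, 7.19 and 6.91 FPKM in BrM3-shNC. The second silenced library was the highest of its group and remained well below the control libraries (log2 fold change -0.75, SE 0.0820, limma adjusted p = 6.3e-04). NUP205 (chr7:135557919-135648757, plus strand), a large helical scaffold protein, was at 14.8, 14.4 and 14.8 FPKM against 22.4, 20.7 and 21.2 FPKM (log2 fold change -0.54, SE 0.0390, limma adjusted p = 1.2e-04). The groups were well separated, but NUP205 lost its call at -0.50 under quantile normalization.

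The paralog of NUP205, NUP188, had a log2 fold change of -0.42 at 12.8 ± 0.452 FPKM against 17.2 ± 0.257 FPKM (SD, n = 3, limma adjusted p = 3.1e-04). NUP93, the linker of the ring, stood at 77.2% of control and NUP155, a scaffold protein on the membrane side, at 85.4%. The ratio of NUP205 to NUP188 moved little, from 1.24 ± 0.0447 to 1.14 ± 0.0266 (SD, n = 3), while that of NUP35 to NUP155 moved from 0.748 ± 0.0323 to 0.519 ± 0.0757 (SD, n = 3). Summed over the 5 genes, the inner ring was at 50.2 ± 0.708 FPKM in BrM3-shAKR1B10 against 68.7 ± 0.616 FPKM in BrM3-shNC (SD, n = 3), or 73.0% of control.

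The central channel trimer, NUP62, NUP58 and NUP54, carries the repeats that form the permeability barrier. None of the 3 genes was called, and each passed the test in the lower direction at any fold. NUP62 was at 24.3 to 26.3 FPKM against 29.6 to 32.7 FPKM (log2 fold change -0.29, limma adjusted p = 0.00395), NUP54 had a log2 fold change of -0.37 and NUP58 of -0.22. Of the exonic bases of NUP62, 21.1% are shared with other genes, ATF5 among them. The ratio of NUP62 to NUP58 overlapped between the groups (3.92 ± 0.169 and 4.13 ± 0.236, SD, n = 3). NUP98, whose product is cleaved into the channel protein NUP98 and the Y complex subunit NUP96, was at 11.3, 11.9 and 11.9 FPKM against 12.1, 12.0 and 11.2 FPKM. The values of NUP98 were interleaved, and the 95% interval of its log2 fold change ran from -0.12 to 0.10 (limma adjusted p = 0.896).

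The cytoplasmic filaments held the one gene of the 31 that passed the test in the higher direction. RANBP2 (ENSG00000153201, chr2:108719481-108785811, plus strand), also named NUP358, a giant filament protein that binds Ran and acts as a SUMO ligase, was at 16.2, 16.4 and 16.9 FPKM in BrM3-shAKR1B10 and at 13.9, 13.3 and 13.8 FPKM in BrM3-shNC. The groups did not overlap, and the log2 fold change of 0.27 (SE 0.0364, limma adjusted p = 0.00144) was below the fold limit. The RGPD genes are near-identical copies of part of RANBP2, among which reads can be split. The 7 RGPD genes together held between 72 and 189 reads per library, or 2.32% to 6.85% of the reads of RANBP2, with overlapping ranges in the groups.

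NUP88 (chr17:5360963-5420160, minus strand), which forms a subcomplex with NUP214 that docks the messenger RNA export machinery, was at 8.20, 8.84 and 8.39 FPKM against 12.7, 11.5 and 12.6 FPKM. It was called at a log2 fold change of -0.53 (SE 0.0540, limma adjusted p = 5.0e-04), and the call was lost at -0.49 with a pseudocount of 1 and in TPM, and at -0.50 under quantile normalization. Of its exonic bases, 18.7% are shared with genes on the opposite strand, RPAIN among them. NUP214 was at 7.61, 8.01 and 8.69 FPKM against 8.75, 8.30 and 8.46 FPKM, with overlapping groups and a 95% interval from -0.21 to 0.07. The ratio of NUP88 to NUP214 was 1.05 ± 0.0730 against 1.44 ± 0.0517, and the ratio of RANBP2 to NUP88 was 1.95 ± 0.0824 against 1.11 ± 0.0342 (SD, n = 3).

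The nuclear basket, which receives cargo and messenger RNA on the nuclear side, had small differences in 1 direction. NUP50, which helps to release importins from cargo, was at 13.3 to 13.8 FPKM against 16.4 to 17.1 FPKM (log2 fold change -0.30, limma adjusted p = 9.8e-04). TPR, the coiled-coil scaffold of the basket, was at 18.9 to 19.9 FPKM against 21.5 to 23.0 FPKM, and NUP153, which ties the basket to the pore and lamina, at 22.5 to 23.9 FPKM against 25.3 to 26.3 FPKM. All 3 passed the test at any fold and none was called. Over the 25 pore genes the summed level was 322 ± 1.21 FPKM in BrM3-shAKR1B10 against 402 ± 6.20 FPKM in BrM3-shNC, or 80.1% of control, and over the 6 lamina genes 312 ± 8.13 FPKM and 403 ± 12.6 FPKM, or 77.4% (SD, n = 3).

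The sequences before the start of the genes were searched for short motifs known from cell cycle promoters, since many of the envelope genes moved together. The motifs were the cell cycle genes homology region (CHR), spelled TTTGAA or, in its other accepted form, TTCGAA, the box spelled CCAAT, and an E2F site spelled TTCGCGC or, in its other accepted form, TTGGCGC, each searched on both strands. On the reverse strand the first CHR form reads TTCAAA, the CCAAT box reads ATTGG and the other CHR form reads as itself, and none of the motifs contains another. Windows from 250 bases before to 50 bases after the start were taken from RefSeq (GRCh38.p14), and 30 of the 31 genes matched, all but NUP43. The printed stretches of 30 bases are read 5′ to 3′ on the strand of the gene, with the match nearest to the start in capitals. They show the CHR in the 5 called genes that hold one, then the CCAAT box in 5 of the 7 called genes that hold one. The CCAAT boxes of NUP35 and NUP205 lie close to their CHR and are not printed apart.
NDC1 (chr1:53838310-53838339, minus strand): ggccttcctgccTTTGAActgcggtggcgg
NUP35 (chr2:183124396-183124425, plus strand): gtttccgccattTTTGAAaattaattggga
NUP37 (chr12:102120163-102120192, minus strand): cgctgaatacagTTCAAAcctcgcgggagg
NUP205 (chr7:135557740-135557769, plus strand): gccctcgccttaTTTGAAtgggaataatcc
LMNB2 (chr19:2457180-2457209, minus strand): gttcTTTGAAcacgttttgaggttctctaa
TMPO (chr12:98515545-98515574, plus strand): ctcccgtcgcccgCCAATggcggcgcgcgt
NUP37 (chr12:102120137-102120166, minus strand): gaggccccgggagCCAATcgctgcgctcgc
NUP88 (chr17:5419692-5419721, minus strand): tggacggccgcggATTGGctgtgctcagcg
LMNB1 (chr5:126776985-126777014, plus strand): ctgcctgctccccATTGGcccatggtagtc
NUP107 (chr12:68686827-68686856, plus strand): caaccaggaacacATTGGcaaacttttgcg

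The CHR match began 31 bases before the start in NDC1, 35 bases before it in NUP35 and 66 bases before it in NUP37. In NUP205 and LMNB2 the match lay further out, 165 and 246 bases before the start. In NUP35, NUP37 and NUP205 a CCAAT box followed the CHR, 24, 39 and 148 bases before the start. Of the 10 called genes with a window, 5 held a CHR (NDC1, NUP35, NUP37, NUP205 and LMNB2) and 7 a CCAAT box (TMPO, NUP35, LMNB1, NUP37, NUP107, NUP205 and NUP88). Of the 20 genes not called, 4 held a CHR and 7 a CCAAT box. Over all 35116 windows, 16.4% held a CHR and 34.6% a CCAAT box, beside 26.8% and 43.9% of the 41 windows of the envelope genes. The E2F letters were found in 0 of the 10 called genes and in 5 of the others (NUP155, NUP188, NUP50, NUP54 and POM121), and in 12.2% of the windows of the envelope genes beside 5.06% of all windows. These matches are descriptions of letters and were not tested for binding.

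Genes that work with the pore and lamina were counted from lists written for this comparison. Of 24 nuclear transport receptors tested, 4 (16.7%) were called lower and 0 higher, beside 7.45% and 5.83% of all genes tested, with a median log2 fold change of -0.13. At any fold, 11 receptors (45.8%) passed the test in the lower direction and 2 in the higher direction, namely IPO13 at 0.29 and XPO4 at 0.20, beside 23.1% and 19.4% of all genes tested. KPNA2 (importin alpha, an adaptor for classical import signals) was at 33.1, 32.4 and 34.4 FPKM in BrM3-shAKR1B10 and at 68.3, 73.3 and 68.6 FPKM in BrM3-shNC, with a log2 fold change of -1.07 (limma adjusted p = 1.6e-05). IPO8, an importin, was at 8.10 ± 0.131 FPKM against 16.1 ± 0.763 FPKM, and CSE1L, which returns importin alpha to the cytoplasm, at 61.2 ± 1.11 FPKM against 99.3 ± 3.96 FPKM (SD, n = 3, both called lower by limma). KPNA7, another importin alpha, was called at a low level, 1.56 FPKM against 2.57 FPKM.

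Of 8 genes of the Ran cycle, which gives transport its direction, 2 (25%, beside 7.45% of all genes tested) were called lower, with a median of -0.32. RAN itself was at 55.8, 55.4 and 51.7 FPKM against 79.3, 77.5 and 78.7 FPKM (log2 fold change -0.53, limma adjusted p = 1.1e-04). RCC1, its exchange factor on chromatin, was at 19.9 ± 0.199 FPKM against 31.9 ± 1.23 FPKM (SD, n = 3, log2 fold change -0.68, limma adjusted p = 4.3e-05). Of 14 other pore and pore assembly genes, only NUP62CL, a NUP62-like gene, was called, at 5.12 ± 0.202 FPKM against 9.04 ± 0.0196 FPKM (SD, n = 3), and the median was -0.08. This share, 7.14%, is close to the 7.45% of all genes tested. Of 12 partners of the inner membrane and the LINC complexes, which join the nucleus to the cytoskeleton, 2 (16.7%) were called lower. They were SYNE2 (nesprin-2) and VRK1 (a chromatin kinase that acts on BANF1), with log2 fold changes of -0.60 and -0.50, the latter with one control library at 2.64 FPKM close to the highest silenced library at 2.49 FPKM. None of the 5 lamin processing enzymes and none of the 16 genes of messenger RNA export was called, with medians of -0.07 and -0.06.

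**Figure D5:**
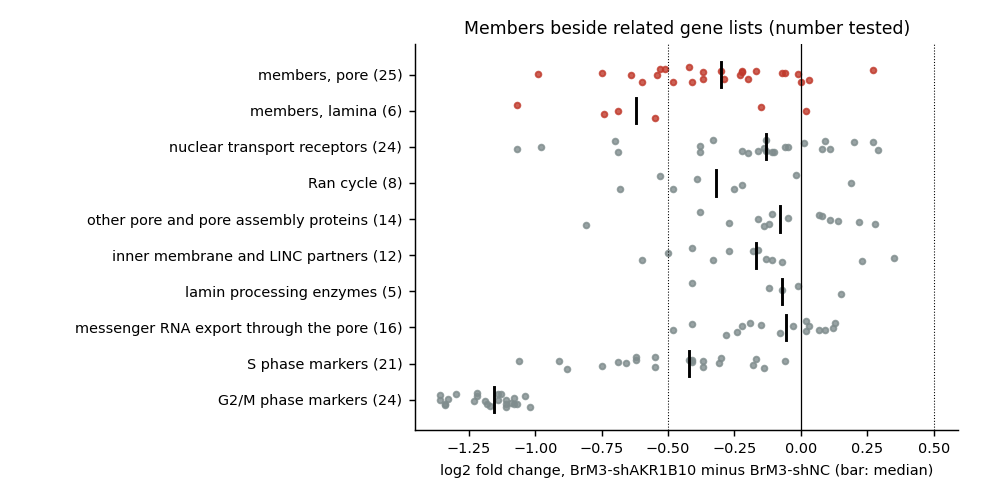
Log2 fold change of each gene (points, spread vertically at random) in the pore and lamina sets and in the related lists, with the median as a bar and dotted lines at -0.5 and 0.5. The medians run from -1.15 for the G2/M markers and -0.62 for the lamina genes to -0.06 for messenger RNA export.

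Markers of the cell cycle phases were lower in the same libraries. All 24 G2/M markers were called lower, beside 7.45% of all genes tested, with a median log2 fold change of -1.15, and their summed level was 508 to 514 FPKM in BrM3-shAKR1B10 against 1150 to 1170 FPKM in BrM3-shNC. CCNB1, the mitotic cyclin, had a log2 fold change of -1.23 and its kinase CDK1 of -1.07, and MKI67, a protein of proliferating cells that coats mitotic chromosomes, of -1.34. Of 21 S phase markers, 10 (47.6%) were called lower and 0 higher, with a median of -0.42 and a summed level of 494 to 505 FPKM against 674 to 694 FPKM. TMPO and NDC1 had log2 fold changes near those of the least changed G2/M markers (up to -1.02), and the median of the 31 envelope genes was near that of the S phase markers. The part of the phase markers in the levels of the envelope genes was not tested.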

How the data were processed

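PC9-BrM3 libraries were grouped by their titles. The authors aligned reads with HISAT2 2.0.5, counted them per gene with featureCounts 1.5.0-p3 and deposited FPKM per gene and library, with the gene length. The build was not named; all 58735 genes match GENCODE 29 (GRCh38) by identifier, position and strand. FPKM times gene length was a whole multiple of 1 step per library, which gave whole reads (tolerance 0.01 reads) for 100% of values. The steps correspond to library sizes of 16911164 to 18350584. These sizes exceed the reads on genes in every BrM3-shAKR1B10 library (17669819 against 17253067 in replicate 1). In every BrM3-shNC library they are below the reads on genes (18350584 against 18709028 in replicate 1). The median log2 fold change of all genes tested was -0.011 in FPKM and 0.025 in TPM. A floor of 3 reads is 0.163 to 0.177 FPKM for a gene of 1000 bases, and covers counting error only.

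Levels were tested as log2(FPKM + 0.1) where the mean reached 1 FPKM, by limma 3.58.1 (R 4.3.3; lmFit, then eBayes with trend), a procedure tested on simulated data. The LMNB1 to LMNA ratio was compared by exact permutation in Python 3.11.15 with scipy 1.17.1. The genes and lists were chosen with earlier results of these data known. Named are all 31 genes, AKR1B10, of the phase markers CCNB1, CDK1 and MKI67, and of the other related lists the called genes (at most the 5 lowest and 5 highest); other genes were chosen after their values were seen. Alternatives were pseudocounts of 1 and 0.01, no filter, a mean of at least 5 FPKM, TPM, quantile normalization, voom on recovered reads, a replicate block, other fold limits and each library left out. Protein sequences were not analysed here.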

Additional observations from a re-analysis of the deposited data

How the results depend on the processing

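TMPO, NDC1, NUP35, LMNB1, LMNB2, NUP37 and NUP107 were called lower by limma in all 14 alternatives that kept the fold limit of 0.5, and the median log2 fold change of the 31 genes stayed between -0.38 and -0.32. The number of envelope genes called lower was 11, 9 with a pseudocount of 1 and in TPM, 7 under quantile normalization, 24 with no fold limit and 1 (TMPO) with a fold limit of 1; called higher were 0, and 1 with no fold limit. Leaving out each library in turn gave 10 to 12 genes lower. NUP85 joined at -0.52 without BrM3-shAKR1B10 replicate 2. Over all genes, 980 were called lower and 766 higher. The counts were 532 and 290 at a mean of at least 5 FPKM, 3044 and 2548 with no fold limit, 205 and 168 with a limit of 1, and 497 higher with a pseudocount of 1; voom on the recovered reads called 1038 and 789, and TPM, where more genes were higher than lower, 873 and 902. With a pseudocount of 1, low genes lie nearer to 0 by construction. Without single libraries, 947 to 971 were lower and 656 to 759 higher, the LMNB1 to LMNA log2 difference was -0.60 to -0.57, and AKR1B10 was -2.86 to -2.83.

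Changes of sign were confined to 4 genes that did not pass the test. Without single libraries, EMD ranged from -0.04 (without BrM3-shAKR1B10 replicate 3) to 0.06 and NUP160 from -0.0013 (without BrM3-shNC replicate 3) to 0.06. NUP98 was 0.03 in TPM, 0.04 under quantile normalization and 0.02, 0.01 and 0.0049 without BrM3-shAKR1B10 replicate 1, BrM3-shNC replicate 1 and BrM3-shNC replicate 2. POM121, at -0.03 without BrM3-shAKR1B10 replicate 1 and likewise without BrM3-shNC replicate 1, was 0.04 in TPM, 0.02 under quantile normalization and 0.04, 0.01 and 0.02 without BrM3-shAKR1B10 replicate 2, BrM3-shNC replicate 2 and BrM3-shNC replicate 3. The cause was not tested.

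Replicates with the same number did not deviate together (correlations across 13150 genes of -0.0155, 0.00388 and 0.00383). With the replicate number as a block, 11 envelope genes were called lower and 22 passed in the lower direction at any fold (LMNA and SEH1L did not, at limma adjusted p = 0.051 and 0.0609), and over all genes 967 were lower and 719 higher. LMNA and SEH1L were the genes of the 25 passing at any fold that missed the limit under other alternatives too. SEH1L was not tested at a mean of at least 5 FPKM.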

Other observations

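For 7 of the 31 envelope genes, the start of another protein-coding gene lies within 1000 bases on the opposite strand. Such neighbours can overlap the envelope gene, as PCMT1 shares exonic bases with NUP43. The neighbours were looked up after the values of the envelope genes were seen. PARPBP, which restrains homologous recombination, starts 61 bases from NUP37 and was called lower as well, at 1.07 ± 0.0764 FPKM in BrM3-shAKR1B10 against 2.22 ± 0.428 FPKM in BrM3-shNC (SD, n = 3, log2 fold change -0.98, limma adjusted p = 0.00327). MEX3A, an RNA-binding protein, starts 575 bases from LMNA and was called at a log2 fold change of -0.78 (4.44 ± 0.491 FPKM against 7.69 ± 0.468 FPKM, SD, n = 3, limma adjusted p = 7.0e-04), a larger difference than that of LMNA. RPAIN, which starts 519 bases from NUP88 and shares exonic bases with it, had a log2 fold change of 0.35 (limma adjusted p = 0.00657), opposite in sign to NUP88. The neighbours of TPR (ODR4), NUP188 (DOLK), NUP98 (PGAP2) and NUP43 (PCMT1) had log2 fold changes of -0.11, 0.06, 0.16 and -0.12, and none was called.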
